A study of Mus musculus with 37 samples.

Results

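The genes described here mark liver macrophages and blood monocytes, and were taken by their symbols from the 24421 gene rows of 37 mouse liver RNA-seq libraries. The group holds 10 genes. Clec4f, Vsig4, Timd4, Marco and Cd5l mark Kupffer cells, the macrophages that live in the liver, and Adgre1, Csf1r, Cd68, Lyz2 and Ccr2 mark macrophages in general or cells recruited from blood. All 10 passed the filter on low counts, as did 15152 genes in all. Each library came from the liver of a C57BL/6 mouse 2 months old. The mice were wild type (WT) or carried STAT5B-Y665F or STAT5B-Y665H, in which a tyrosine of the transcription factor STAT5B is replaced by phenylalanine or histidine. Male libraries numbered 6 for WT, 9 for Y665F and 4 for Y665H, and each female genotype had 6 libraries. The labels give no zygosity and name no cell type to which the substitutions were limited. Within a sex, the Y665F and Y665H comparisons share their WT libraries. The comparison asks how the RNA of these cells in whole liver differs with each substitution and with sex.

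Kupffer cells line the liver sinusoids, settle there before birth and renew themselves, and take up bacteria, aged red cells and debris from blood. Monocytes that enter from blood follow CCL2 and related chemokines through the receptor CCR2, and can become macrophages that slowly take on Kupffer genes. Kupffer cells depend on the receptor CSF1R and its ligands. STAT5B acts in hepatocytes below the growth hormone receptor, where it sets much of the difference between male and female liver, and in blood cells below cytokine receptors. As background, Y665F has been described as a substitution that raises STAT5B activity and Y665H as one that lowers it.

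Counts assigned to genes were 49141951 to 73937726 in the male libraries and 24388434 to 40864173 in the female libraries, so that depth did not overlap between the sexes and a processing difference between them cannot be told apart from sex. Reads in no annotated gene took 11.9% to 19.9% of counted items in males and 7.21% to 15.8% in females. Here called means an adjusted p-value under 0.05 in edgeR's quasi-likelihood test. Stat5b RNA lay between 72.5 and 114 CPM (a gene's count relative to all gene counts of its library) in all libraries. It was called higher in Y665F than in WT males (0.17, adjusted p 0.0370), lower in Y665H than in Y665F males (-0.25, adjusted p 0.0103), and higher in males than in females of WT (0.19, adjusted p 0.0323) and Y665F (0.33, adjusted p 1.30e-04). Stat5a, its close relative, was higher in Y665F than in WT males (0.63, adjusted p 3.11e-07) and lower in Y665H than in Y665F males (-0.34, adjusted p 0.00615) and in WT males than in WT females (-0.40, adjusted p 0.00101). Counts per gene cannot show the substitution itself. All 10 genes were counted in every library, from a lowest count of 15 for Ccr2 in a Y665H female to a highest of 12853 for Clec4f in a Y665F male. In whole liver RNA, fewer cells of a type and less RNA per cell cannot be told apart. Levels below are CPM scaled by TMM, which are not adjusted for gene length and are therefore compared between groups and not between genes.

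The sequence before the start site was examined because Ccr2 differed from the other 9 genes in several comparisons. RefSeq windows (GRCm38.p6) from 250 bases before the start to 50 bases after it were found for 8 of the 10 genes, all but Adgre1 and Csf1r. The 3 windows printed belong to a resident gene with a pair of matches, to the resident gene with the largest difference, and to Ccr2. Capitals mark the letters GAGGAA or, on the other strand, TTCCTC, a core bound by PU.1, the factor that specifies macrophages. The Vsig4 window is chrX:96293389-96293688 (minus strand), the Marco window chr1:120504975-120505274 (minus strand) and the Ccr2 window chr9:124101933-124102232 (plus strand). The Ccr2 window lies wholly inside the annotated gene, which begins at chr9:124101918. Sequence before that base was not searched, so the Ccr2 window is not like the other windows printed.
Vsig4: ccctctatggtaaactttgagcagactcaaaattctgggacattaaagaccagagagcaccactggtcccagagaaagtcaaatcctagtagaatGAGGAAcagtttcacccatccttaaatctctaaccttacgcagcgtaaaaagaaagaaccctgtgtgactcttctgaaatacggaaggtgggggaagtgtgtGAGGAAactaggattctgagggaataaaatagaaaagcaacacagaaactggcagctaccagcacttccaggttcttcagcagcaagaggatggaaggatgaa
Marco: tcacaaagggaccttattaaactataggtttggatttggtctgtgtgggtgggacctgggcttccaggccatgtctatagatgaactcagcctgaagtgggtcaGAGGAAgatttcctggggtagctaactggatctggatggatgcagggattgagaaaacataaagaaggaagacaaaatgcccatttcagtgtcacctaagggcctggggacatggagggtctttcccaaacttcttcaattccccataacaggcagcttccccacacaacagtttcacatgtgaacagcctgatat
Ccr2: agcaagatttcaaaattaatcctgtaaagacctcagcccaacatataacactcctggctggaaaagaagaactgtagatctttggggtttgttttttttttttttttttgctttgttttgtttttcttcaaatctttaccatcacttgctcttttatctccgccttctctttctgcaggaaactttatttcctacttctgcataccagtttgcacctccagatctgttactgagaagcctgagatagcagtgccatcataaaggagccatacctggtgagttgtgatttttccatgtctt
These letters occurred in 4 of the 8 windows, at -155 and -53 from the start in Vsig4, at -146 in Marco, at -66 in Cd5l and at -225 and 30 in Cd68, and in 28.3% of 32851 promoter windows of the same length. Clec4f, Timd4, Lyz2 and Ccr2 held no match. The STAT letters TTCNNNGAA, which read the same on both strands, were in 0 of the 8 windows and in 8.30% of all windows. A match is a description of the sequence, and the absence of one says only that these letters are not in this window.

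In WT mice, RNA of the resident Kupffer genes and of the general macrophage genes was higher in females than in males, and Ccr2 was the exception. Of the 10 genes, 9 were called lower in WT males than in WT females, against 26.8% of all genes tested, with a median log2 fold change of -0.82 over the 10 genes and -0.02 over all genes. Marco, a scavenger receptor that binds bacteria, had lowest, median and highest levels of 0.820, 1.46 and 1.82 CPM in WT males and 5.32, 5.77 and 9.33 CPM in WT females. No male reached the lowest female (log2 difference -2.24 with SE 0.41, adjusted p 2.72e-05), a level 4.71-fold higher in females. Clec4f, a lectin made almost only by Kupffer cells in mice, stood at 56.1, 66.3 and 85.3 CPM in WT males and at 96.9, 125 and 161 CPM in WT females, again without overlap (log2 difference -0.82 with SE 0.17, adjusted p 1.65e-04). Cd5l, a secreted protein that limits macrophage death, differed by -1.15 (adjusted p 8.66e-06) on the log2 scale. Groups overlapped for Timd4, the receptor for phosphatidylserine on dying cells (-0.82, adjusted p 0.00142), and for Vsig4, the complement receptor of the immunoglobulin family (-0.77, adjusted p 4.41e-04).

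Among the general genes, Cd68, a lysosomal membrane protein, ranged from 3.84 to 4.79 CPM in WT males and from 6.29 to 10.4 CPM in WT females (log2 difference -1.0 with SE 0.15, adjusted p 1.44e-06). Lyz2, the lysozyme of myeloid cells, ranged from 20.8 to 34.0 and from 40.2 to 71.4 CPM (log2 difference -1.07 with SE 0.19, adjusted p 1.54e-05). Csf1r, the receptor that Kupffer cells need to survive, and Adgre1, which encodes F4/80, were also lower in every WT male than in any WT female, with log2 differences of -0.82 (adjusted p 6.82e-05) and -0.67 (adjusted p 0.00364). For Ccr2, the lowest, median and highest levels were 1.00, 1.32 and 1.39 CPM in WT males and 0.669, 0.973 and 1.29 CPM in WT females. The Ccr2 ranges overlapped, males lay on the higher side, and the difference was not called (log2 difference 0.32 with SE 0.18, adjusted p 0.146; 95% interval -0.04 to 0.67). With library totals and no scaling factor it was called higher in males (0.43, adjusted p 0.0495). The share of reads in no gene was 18.8% in WT males (SD 0.893, n = 6) and 11.6% in their female counterparts (SD 1.97, n = 6). With that share as a covariate, Vsig4, Timd4 and Adgre1 were no longer called, and with all libraries thinned to 24388434 counts 9 genes were still called.

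**Figure D1:**
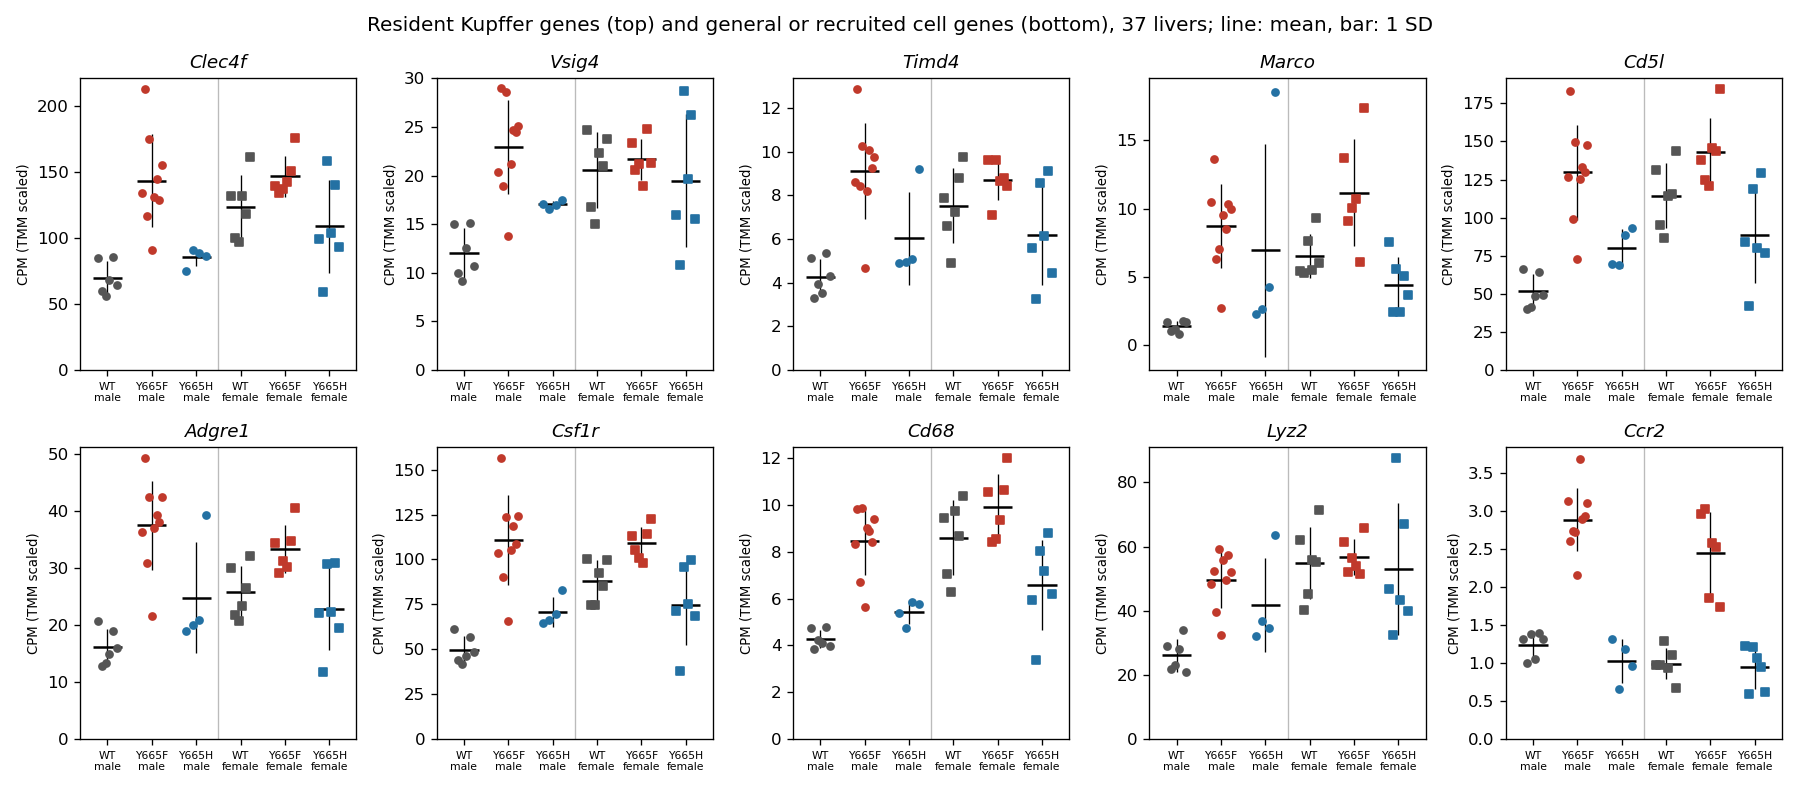
Level of each gene (CPM, TMM scaled) in each of the 37 liver libraries, by group, with a line at the group mean and a bar of 1 SD. Circles are males, squares females. WT males are the lowest group by mean for 9 genes, and for Ccr2 both Y665F groups sit above all other libraries.

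In Y665F males all 10 genes rose over WT males, against 27.2% of all genes tested, and the median log2 fold change was 1.13 over the 10 genes and -0.01 over all genes. Marco rose most. Its lowest, median and highest levels in Y665F males were 2.75, 9.57 and 13.6 CPM, where no WT male passed 1.82 CPM, a 6.28-fold rise seen in 9 of 9 libraries (log2 difference 2.65 with SE 0.38, adjusted p 3.87e-07). Cd5l stood at 40.2, 48.9 and 66.4 CPM in WT males and at 72.8, 129.8 and 183 CPM in Y665F males, and the groups did not overlap (log2 difference 1.33 with SE 0.18, adjusted p 1.57e-07). Clec4f went from a mean of 69.8 CPM (n = 6, SD 12.5) to 143 CPM (n = 9, SD 35.2), with every Y665F male above every WT male (log2 difference 1.04 with SE 0.16, adjusted p 1.43e-06). Timd4 and Vsig4 rose by 1.10 (adjusted p 8.41e-06) and 0.92 (adjusted p 9.78e-06), and for each of them 8 of the 9 Y665F males lay above all WT males.

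The general genes were called higher in the same libraries. Csf1r had lowest, median and highest levels of 41.8, 47.3 and 61.3 CPM in WT males and 66.0, 109 and 156 CPM in Y665F males (log2 difference 1.15 with SE 0.15, adjusted p 5.67e-08). The Csf1r ranges did not overlap, and the same held for Adgre1 (1.22, adjusted p 4.60e-07) and Cd68 (0.98, adjusted p 2.53e-07). Lyz2 ranged from 32.5 to 59.4 CPM in Y665F males against 20.8 to 34.0 CPM in WT males (log2 difference 0.93 with SE 0.17, adjusted p 2.98e-05), with 8 of 9 libraries above all WT males. For Ccr2, the Y665F males held 2.16, 2.89 and 3.68 CPM as lowest, median and highest, against 1.00, 1.32 and 1.39 CPM in WT males, and the lowest Y665F male was well above the highest WT male (log2 difference 1.21 with SE 0.15, adjusted p 2.24e-08). All 10 calls remained when any 1 library was left out. Replicate 5 of the Y665F males had the lowest level of all 10 genes in its group, and replicate 2 the highest level of 7 genes.

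In Y665F females the picture was different, since Ccr2 was the only gene of the 10 to be called higher than in WT females, against 17.8% of all genes tested. Ccr2 stood at 0.669, 0.973 and 1.29 CPM in WT females (lowest, median and highest) and at 1.74, 2.55 and 3.03 CPM in Y665F females. All 6 Y665F females lay above all WT females, a 2.47-fold difference (log2 difference 1.30 with SE 0.18, adjusted p 4.66e-07). Clec4f ranged from 96.9 to 161 CPM in WT females and from 134 to 176 CPM in Y665F females, with overlap (log2 difference 0.25 with SE 0.17, adjusted p 0.244; 95% interval -0.08 to 0.58). Marco had the largest difference of the genes not called, ranging from 5.32 to 9.33 CPM in WT and from 6.07 to 17.3 CPM in Y665F, with 4 of 6 Y665F females above all WT females (log2 difference 0.76 with SE 0.37, adjusted p 0.0995). The other 7 genes had log2 fold changes from 0.05 for Lyz2 to 0.38 for Adgre1, and a value above 0 in each case. When the spread was taken from the WT and Y665F females alone, 5 genes were called, namely Ccr2 with Marco (0.79, adjusted p 0.00738), Adgre1 (0.41, adjusted p 0.00791), Csf1r (0.34, adjusted p 0.00420) and Cd5l (0.35, adjusted p 0.0302). That fit called 41.0% of all genes in either direction, and the fit over all libraries 41.0%.

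**Figure D2:**
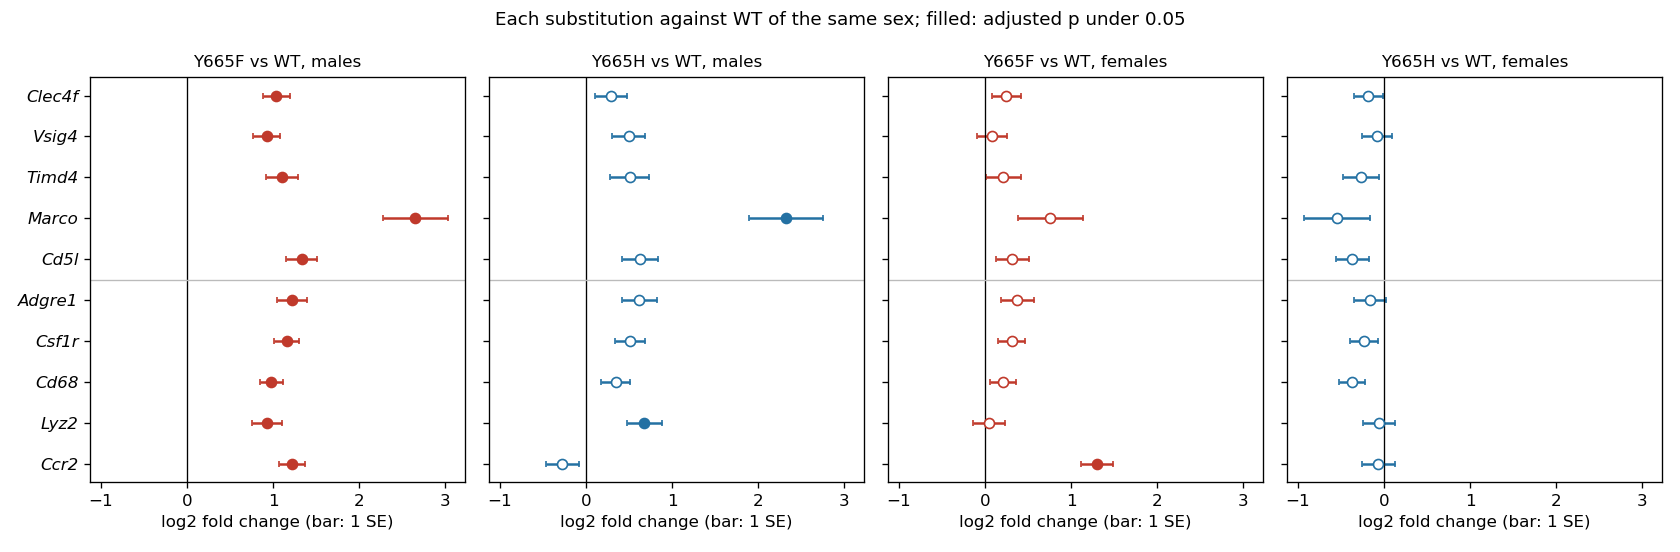
Log2 fold change of each gene for each substitution against WT of the same sex, with a bar of 1 SE; filled points had an adjusted p under 0.05. All 10 points are filled for Y665F males, and in Y665F females the filled point is Ccr2.

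The difference of the Y665F effect between the sexes was tested directly. It was called for 9 of the 10 genes, all with the larger rise in males, against 16.1% of all genes tested. The difference was 1.89 for Marco (SE 0.52, adjusted p 0.00663), 1.01 for Cd5l (SE 0.26, adjusted p 0.00369) and 0.77 to 0.89 for Clec4f, Vsig4, Timd4, Adgre1, Csf1r, Cd68 and Lyz2. For Ccr2 it was -0.09 (SE 0.23, 95% interval -0.54 to 0.37, adjusted p 0.815), so that the Ccr2 effect was not shown to differ between the sexes. With the share of reads in no gene as a covariate, Marco, Cd5l and Csf1r remained called and the other 6 genes had adjusted p-values from 0.0526 to 0.132. When any single library was left out, 9 genes were called each time.

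Within Y665F mice the sex difference seen in WT was not called for any of the 10 genes, in a comparison added after the data were seen. Of all genes tested, 20.3% were called lower in males here. The count of 0 held at an unadjusted p under 0.05, where 49.9% of all genes passed in either direction, and with DESeq2 and limma-voom. Clec4f averaged 143 CPM (n = 9, SD 35.2) in Y665F males and 147 CPM (n = 6, SD 15.5) in Y665F females, with a 95% interval of -0.34 to 0.27 for the log2 fold change. Csf1r averaged 111 CPM (n = 9, SD 25.0) and 109 CPM (n = 6, SD 9.22) (95% interval -0.26 to 0.31). Marco had the largest difference, -0.35 with males lower (95% interval -0.99 to 0.29). Cd68 was at -0.23 (95% interval -0.49 to 0.03) and was called in the libraries thinned to equal depth (-0.37, adjusted p 0.0332). With library totals and no factor, Ccr2 was called higher in males (0.42, adjusted p 0.0180).

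In Y665H males 2 of the 10 genes rose over WT males, Marco and Lyz2, against 5.22% of all genes tested. Marco stood at 2.29, 2.67, 4.30 and 18.6 CPM in the 4 Y665H males and at 0.820 to 1.82 CPM in the WT males, with no overlap (log2 difference 2.32 with SE 0.43, adjusted p 6.54e-04). Replicate 4 was far above the other 3 Y665H males, and the call held narrowly without it (1.14, adjusted p 0.0497). Lyz2 stood at 32.2, 36.8, 34.5 and 63.5 CPM against 20.8 to 34.0 CPM in WT males (log2 difference 0.68 with SE 0.20, adjusted p 0.0339). Replicate 4 was again the highest. Lyz2 was not called without Y665H male replicate 2 or without WT male replicates 2, 3 or 6, each left out alone, nor without Y665H male replicate 4 (0.40, adjusted p 0.252). Adgre1, at 18.9, 20.1, 20.9 and 39.4 CPM, and Timd4, at 4.89, 4.94, 5.08 and 9.22 CPM, had the same high library and were not called. Ccr2, at 1.32, 0.660, 1.18 and 0.959 CPM, was not high in that library.

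Replicate 4 was less set apart for the other resident genes. Clec4f stood at 75.3, 90.5, 88.6 and 86.3 CPM, Vsig4 at 17.1, 16.6, 17.0 and 17.5 CPM and Cd5l at 69.4, 68.6, 88.3 and 93.0 CPM in the 4 Y665H males. For Vsig4, Cd5l and Csf1r every Y665H male lay above every WT male, yet the differences of 0.50 (adjusted p 0.0976), 0.63 (adjusted p 0.0564) and 0.51 (adjusted p 0.0632) were not called. At an unadjusted p under 0.05, 8 of the 10 genes passed, where 23.9% of all genes did. The count rose to 5 with DESeq2, which also called Cd5l, Adgre1 and Csf1r, and to 6 when the spread came from the WT and Y665H males alone, which called Vsig4, Cd5l, Csf1r and Cd68 beside Marco and Lyz2. Of all genes, DESeq2 called 8.06% in either direction, the fit of these groups alone 14.8% and the edgeR fit over all libraries 8.40%.

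In Y665H females none of the 10 genes was called against WT females by edgeR, DESeq2 or limma-voom, where 7.50% of all genes were called in either direction by edgeR. At an unadjusted p under 0.05, 1 of the 10 genes passed, where 24.7% of all genes did. It was Cd68, which ranged from 3.36 to 8.78 CPM against 6.29 to 10.4 CPM in WT females (log2 difference -0.37 with SE 0.15, adjusted p 0.118). All 10 log2 fold changes were below 0, from -0.54 for Marco (95% interval -1.30 to 0.21) to -0.05 for Lyz2 (95% interval -0.42 to 0.31). Replicate 2 of the Y665H females held the lowest level of all 10 genes in its group, with Clec4f at 59.1 CPM where the others ranged up to 158 CPM. Without it, Vsig4, Lyz2 and Ccr2 were slightly above the WT females.

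The Y665H effect differed between the sexes for 2 genes, Marco (log2 difference 2.87 with SE 0.57, adjusted p 0.00403) and Cd5l (log2 difference 1.00 with SE 0.29, adjusted p 0.0340), against 2.94% of all genes tested. In both, the value was higher than WT in males and lower than WT in females, though of these differences from WT only that of Marco in males was called. Without Y665H male replicate 4 the Marco difference was still called (1.69, adjusted p 0.0270) and Cd5l was not called (0.92, adjusted p 0.0641). The Cd5l call was also lost without each of 7 other libraries, with log2 differences from 0.86 to 0.98 over these 8. Between Y665H males and Y665H females no gene was called, in a comparison added after the data were seen (edgeR, DESeq2 and limma-voom, and none at an unadjusted p under 0.05, where 40.8% of all genes passed), against 16.7% of all genes called lower in males. Without Y665H male replicate 4, Lyz2 was called lower in males (-0.61, adjusted p 0.0315), and without Y665H female replicate 2, Clec4f (-0.48, adjusted p 0.0400) and Cd68 (-0.41, adjusted p 0.0337) were.

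Set directly against each other, Y665H was the lower of the 2 substitutions by log2 fold change for each of the 10 genes, though not all were called. In males 7 genes were called lower in Y665H than in Y665F, against 21.2% of all genes tested, and in females 8 genes were, against 26.0%. Ccr2 had the largest log2 difference of the 10 genes in both sexes. In males it fell by 1.49 on the log2 scale (SE 0.18, adjusted p 2.42e-08), and in females by 1.37 (SE 0.18, adjusted p 9.46e-08), with no overlap in either sex. Clec4f was also lower in every Y665H male than in any Y665F male (log2 difference -0.75 with SE 0.18, adjusted p 0.00115). Vsig4 (-0.43 in males and -0.15 in females) and Lyz2 (-0.25 and -0.10) were called in neither sex. Marco was not called in males (-0.33, adjusted p 0.509), but was without Y665H male replicate 4 (-1.50, adjusted p 7.88e-04), when 9 genes were called. In females the Marco difference was -1.31 (adjusted p 0.00395), and without Y665H female replicate 2 the count in females fell from 8 to 5, with Clec4f, Timd4 and Adgre1 lost. Timd4 in females was also lost without any of 8 other single libraries.

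Ordered by mean, WT males were the lowest group for 9 genes and the highest group was Y665F males for 5 genes and Y665F females for 5. Neighbours in that order overlapped in their ranges, except that the WT males lay below the next group for Vsig4, Marco, Cd5l and Csf1r, and that all Y665F libraries lay above the WT and Y665H libraries for Ccr2. How often neighbours separate over all genes was not computed. Ccr2 was read beside the other genes as a ratio of CPM, which is meaningful between groups only. Per 100 CPM of Csf1r, the Ccr2 level in CPM was 1.16 (n = 6, SD 0.362) in WT females and 2.27 (n = 6, SD 0.552) in Y665F females, with ranges of 0.671 to 1.73 and 1.42 to 2.88. In males the ratio was 2.53 (n = 6, SD 0.428) in WT, 2.70 (n = 9, SD 0.571) in Y665F and 1.47 (n = 4, SD 0.487) in Y665H. In Y665H females it was 1.31 (n = 6, SD 0.328). The WT and Y665F ranges overlapped in each sex, and all Y665H males lay below all WT males. With Clec4f in place of Csf1r as the denominator, the ranges of Y665H and WT males overlapped. As a ratio of chosen genes it was given no test.

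Resident and general genes were also set against each other in each library. The score was the mean log2 CPM of the general genes other than Ccr2 minus that of the 5 resident genes. This difference was 0.53 (n = 6, SD 0.12) in WT males, 0.20 (n = 9, SD 0.13) in Y665F males and 0.30 (n = 4, SD 0.13) in Y665H males. In females it was 0.26 (n = 6, SD 0.09) in WT, 0.18 (n = 6, SD 0.07) in Y665F and 0.35 (n = 6, SD 0.10) in Y665H. WT males had the largest mean, and their range of 0.40 to 0.69 overlapped that of the Y665F males, -0.03 to 0.46. As a score over chosen genes it was given no test.

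**Figure D3:**
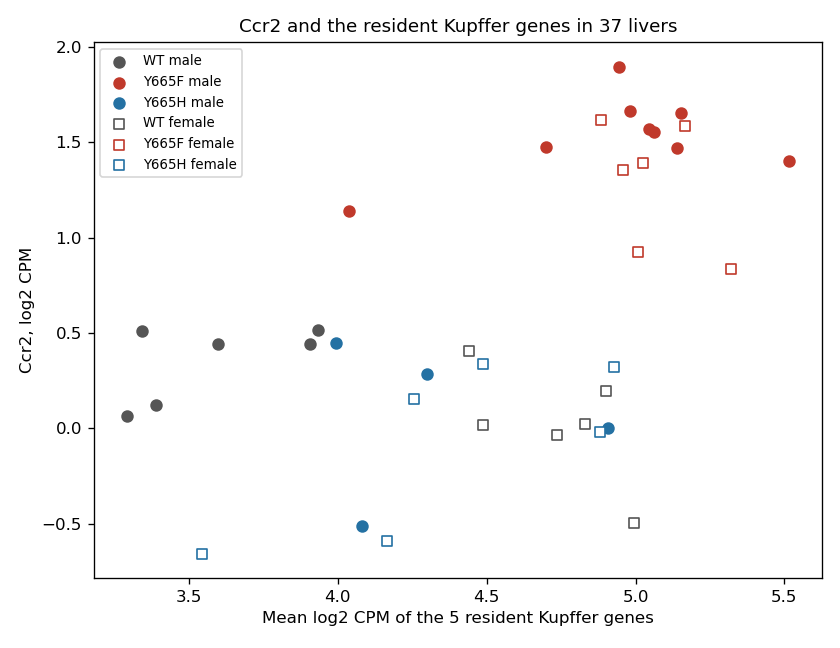
Ccr2 (log2 CPM, prior count 2) against the mean log2 CPM of the 5 resident Kupffer genes in each of the 37 libraries, coloured by genotype, with filled circles for males and open squares for females. Y665F libraries of both sexes lie above all other libraries on the Ccr2 axis, while WT females and WT males differ along the other axis.

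Across libraries the genes other than Ccr2 varied together more closely than with Ccr2. After each gene was centred on its group mean, the 36 pairs among these 9 genes had Pearson correlations from 0.348 to 0.962 over the 37 libraries, with a median of 0.846. Ccr2 correlated with each of the 9 at 0.130 to 0.283, with a median of 0.249, and its low counts add counting noise to these values. These are descriptions, since all values of a library share its depth and scaling. Of 11672 genes compared, those most like the mean of the resident genes were Cfp (r = 0.955), Adgre4 (0.955), Itgb2 (0.930), Itgal (0.914) and Slc11a1 (0.913). Cfp encodes properdin, which stabilises the complement convertase, Adgre4 is a close relative of F4/80, and Itgb2 and Itgal encode the chains of the leukocyte integrin LFA-1. For the general genes they were Cybb (0.947), the core of the phagocyte NADPH oxidase, Cfp (0.935), Lgals3 (0.933), Adgre4 (0.925) and Itgb2 (0.924).

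The same search for Ccr2, added after its values were seen, gave lower values, with Cd24a (0.787), Cxcl9 (0.754), Tnc (0.714), Gbp2 (0.665) and Sash3 (0.635) at the top. Cxcl9 and Gbp2 are induced by interferon gamma. Between groups these genes did not all follow Ccr2. Cxcl9 averaged 5.68 CPM (n = 6, SD 1.53) in WT males and 17.9 CPM (n = 9, SD 5.74) in Y665F males, and 9.77 CPM (n = 6, SD 1.43) and 11.1 CPM (n = 6, SD 2.33) in females, where it was not called (log2 difference 0.19 with SE 0.23, adjusted p 0.543). Sash3, an adaptor of lymphocytes, was called higher in Y665F in both sexes, by 1.35 (adjusted p 6.57e-09) in males and 0.95 (adjusted p 5.52e-05) in females.

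**Figure D4:**
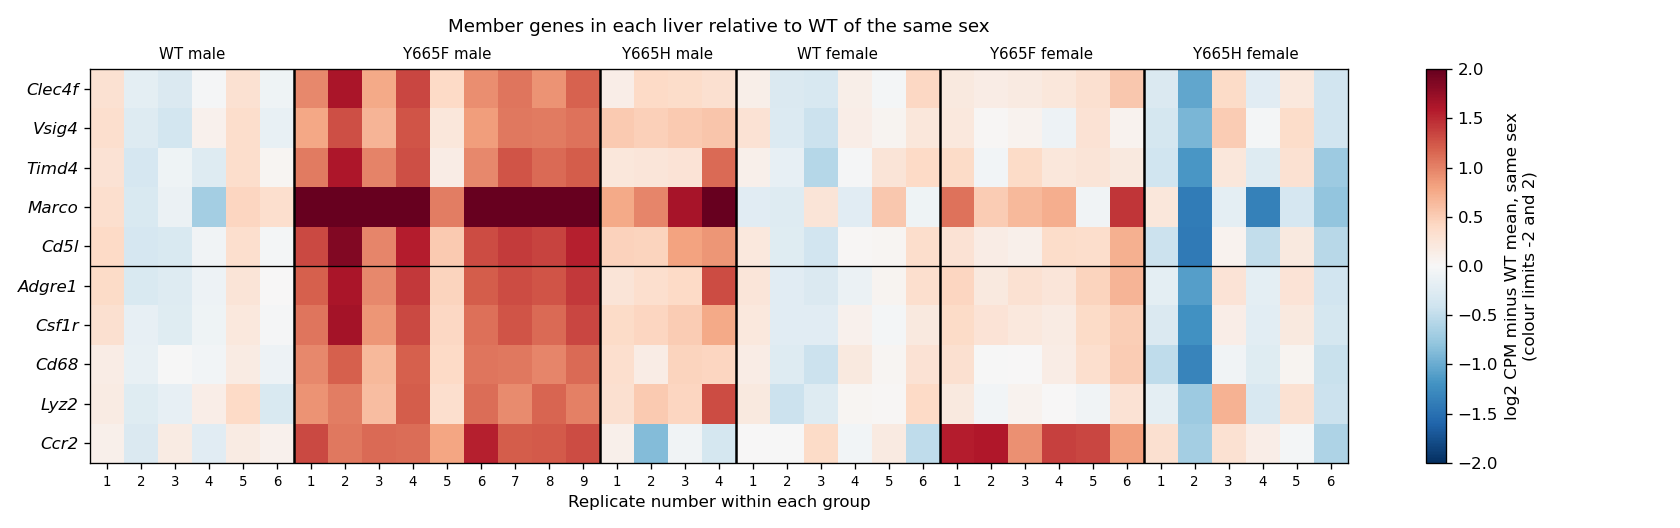
Each gene in each library as log2 CPM minus the mean of the WT libraries of the same sex, with the colour scale limited to -2 and 2 and replicate numbers along the bottom. The columns of Y665F male replicate 5 and Y665H female replicate 2 are lower in all 10 genes than the other libraries of their groups, and Ccr2 stands out in the Y665F females.

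Other genes of these cells were read from lists that hold none of the 10. The background of each list's counts is the share of all genes called. These shares were 27.2% higher and 25.3% lower in Y665F males, 17.8% and 23.3% in Y665F females, 5.22% and 3.18% in Y665H males, and 4.4% and 3.1% in Y665H females, each against WT. Between WT males and females they were 23% higher and 26.8% lower in males. Of 20 further Kupffer genes, all tested, 17 were called higher in Y665F males (median log2 fold change 0.88), and 16 lower in WT males than in WT females (median -0.65). They included Siglec1, the sialic acid receptor CD169, which rose from 21.7 CPM (n = 6, SD 4.35) to 54.6 CPM (n = 9, SD 16.1) (log2 difference 1.34 with SE 0.17, adjusted p 4.74e-08), and C1qa, C1qb and C1qc, the chains of complement C1q, which rose by 1.20, 1.21 and 1.16. In Y665F females 5 of the 20 were called higher and 1 lower (median 0.19), a share near the 17.8% of all genes called higher there. They included Hmox1, the enzyme that breaks down haem, at 0.96 (adjusted p 3.14e-06) and Fcna, a lectin that activates complement, at -0.42 (adjusted p 0.0275). In Y665H males 2 of the 20 were called higher, C1qb (0.61, adjusted p 0.0221) and C1qc (0.56, adjusted p 0.0304), and in Y665H females 1 was called lower, Kcnj16 (-0.55, adjusted p 0.0464).

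Of 17 further general macrophage genes, 16 were called higher and 1 lower in Y665F males, and 14 were lower in WT males than in WT females. Itgam, the chain CD11b, rose from 0.816 CPM (n = 6, SD 0.141) to 2.43 CPM (n = 9, SD 0.501) in Y665F males (log2 difference 1.57 with SE 0.16, adjusted p 4.77e-10), and Cd14, the receptor for lipopolysaccharide, by 1.47 (adjusted p 2.61e-07). In Y665F females 4 of the 17 were called higher and 1 lower, again a share near that of all genes, and in Y665H females 1 was called lower. In Y665H males 3 were called higher, led by Mpeg1, which encodes the pore protein perforin-2 (log2 difference 1.30 with SE 0.20, adjusted p 7.15e-05). Mpeg1 ranged from 92.0 to 194 CPM there, against 46.7 to 74.3 CPM in WT males. In Y665H against Y665F males, 13 of the 17 were called lower and 2 higher, beside 21.2% and 20.5% of all genes. The median summed level of this list was 434 CPM in Y665H males and 408 CPM in Y665F males. In females 12 of the 17 were lower and 0 higher in Y665H, beside 26% of all genes lower.

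Of 17 tested genes of monocytes and recruited macrophages, all 17 were called higher in Y665F males (median 1.27), and 10 were called higher and 1 lower in Y665F females (median 0.76). Ly6c2, the surface marker of classical monocytes, rose from 0.224 CPM (n = 6, SD 0.0360) to 1.15 CPM (n = 9, SD 0.277) in males (log2 difference 2.35 with SE 0.22, adjusted p 4.61e-11) and averaged 0.995 CPM (n = 6, SD 0.300) in Y665F females against 0.369 CPM (n = 6, SD 0.0658) in WT females. S100a4, a calcium binding protein of recruited cells, rose in both sexes, by 2.45 (adjusted p 2.12e-09) in males and 1.57 (adjusted p 8.32e-05) in females. In females Cd9 (2.05, adjusted p 3.52e-11) and Gpnmb (2.01, adjusted p 4.37e-04), genes of lipid-laden macrophages that other liver cells can also make, were among the highest. Fabp5, which binds fatty acids, moved in opposite directions, 2.51 (adjusted p 5.95e-05) in males and -1.93 (adjusted p 0.00300) in females, and spread widely, from 19.3 to 175 CPM in Y665F males. In Y665H mice 1 gene was called in males, Spp1, which encodes osteopontin (0.47, adjusted p 0.0288), and 0 by edgeR in females.

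The growth factors and niche signals of these cells were counted in the same way. Csf1, a ligand of CSF1R, is a growth factor that Kupffer cells live on. Its lowest, median and highest levels were 7.69, 8.84 and 10.3 CPM in WT males, 16.1, 18.5 and 20.5 CPM in Y665F males and 18.3, 19.6 and 26.1 CPM in WT females, so that Y665F males lay above all WT males and overlapped the WT females (log2 difference 1.03 with SE 0.09, adjusted p 2.65e-12). It had the largest called difference of its list between the sexes in WT (-1.21, adjusted p 1.14e-12), was higher in Y665F females (0.31, adjusted p 0.00631) and lower in Y665H females (-0.31, adjusted p 0.0332). Of 15 tested genes of this list, 9 were called higher in Y665F males, and 7 higher and 1 lower in Y665F females. Csf2rb2 and Csf2rb, which encode beta chains of the receptors for IL-3 and GM-CSF, had log2 fold changes of 1.74 and 1.10 in males and 1.18 and 0.68 in females.

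Of 9 tested chemokines that draw monocytes and other leukocytes, 9 were called higher in Y665F males and 4 in Y665F females. Ccl2, the main ligand of CCR2, averaged 0.261 CPM (n = 6, SD 0.117) in WT males, 0.791 CPM (n = 9, SD 0.133) in Y665F males, 0.432 CPM (n = 6, SD 0.116) in WT females and 0.824 CPM (n = 6, SD 0.177) in Y665F females, and was called in both sexes (1.60, adjusted p 3.46e-06 and 0.93, adjusted p 0.0131). Ccl7, another ligand of CCR2, rose by 2.37 (adjusted p 4.77e-05) and 1.62 (adjusted p 0.0244). Ccl5, which acts through other receptors, rose by 2.43 (adjusted p 3.65e-12) and 1.49 (adjusted p 1.62e-06). In Y665H mice Cxcl12 was called higher in males (0.30, adjusted p 0.00656) and Ccl5 lower in females (-0.90, adjusted p 0.0332).

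Markers of other blood cells moved with Y665F too. For T and NK cells, 9 of 10 tested markers were called higher in Y665F males and 10 of 10 in Y665F females, and their summed level was 2.92 to 5.22 CPM in WT males and 6.97 to 18.5 CPM in males with Y665F, and 4.15 to 5.57 in WT females and 9.09 to 12.2 in Y665F females. For B and plasma cells all 6 tested were called higher in both sexes, and the sum was 3.57 to 6.20, 15.8 to 29.3, 7.46 to 12.6 and 17.2 to 30.1 CPM in the same order. Both sums separated Y665F from WT in both sexes without overlap, as Ccr2 did, while some single markers overlapped. Cd4 ranged from 1.03 to 2.62 CPM in WT males and from 0.738 to 1.78 CPM in Y665F males, and was the T cell marker not called there. NK and T cells can also carry CCR2. Their part in the Ccr2 result was not tested. No marker of these lists was at 0 throughout a group.

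Neutrophil markers were called higher for 9 of 11 in Y665F males and 3 of 11 in Y665F females, with sums of 0.683 to 1.30 CPM in WT males and 2.87 to 57.7 CPM in males with Y665F, and 0.686 to 3.53 in WT females and 1.52 to 9.38 in Y665F females. The highest sum was in Y665F male replicate 2, the library that was highest for 7 of the 10 genes, where the granule protease Prtn3 reached 44.5 CPM. Without that library all 10 genes were still called. Some neutrophil markers were near 0 outside Y665F. In WT males the highest counts were 1 for Ngp, 2 for Ltf and 2 for Mpo. In Y665F males their counts were 14 to 135, 16 to 163 and 4 to 84. Such genes passed the low-count filter mainly through the Y665F libraries, so their calls are not independent of that filter. Dendritic cell markers were called higher for 6 of 10 in Y665F males, and 4 higher and 1 lower in Y665F females, beside 27.2% and 17.8% of all genes called higher in these comparisons. Stellate cell markers were called higher for 6 of 8 in Y665F males, and 0 higher and 1 lower in Y665F females. Of 9 endothelial markers, 1 was called higher and 1 lower in Y665F males, and 2 higher and 0 lower in Y665F females. Hepatocyte markers were called in both directions, 2 higher and 4 lower of 8 in Y665F males, and 3 higher and 3 lower in Y665F females. Their summed level was 71552 to 79448 CPM in WT males and 118397 to 132787 CPM in Y665F males, without overlap. In females it was 98562 to 123051 CPM in WT and 185861 to 218011 CPM in Y665F, again without overlap. Most of it was Alb, with WT and Y665F means of 55550 and 110724 CPM in males and 85668 and 180946 CPM in females. Of 8 erythroid markers 3 were tested, and their summed level was 118 to 135 CPM in WT males and 14.7 to 24.7 CPM in males with Y665F, without overlap. Nearly all of it was Alas2, the haem synthesis enzyme of red cell precursors, which fell in Y665F males (log2 difference -2.76 with SE 0.12, adjusted p 1.82e-19), while Slc4a1 and Epor were not called. The Alas2 level of Y665F males, 12.0 to 22.5 CPM, overlapped that of WT females, 19.6 to 26.9 CPM. Of the 8 erythroid genes, 3 were at 0 in every WT male library and 4 in every library of each other group. In Y665F females Alas2 (0.35, adjusted p 0.0407) and Epor (0.47, adjusted p 0.00143) were called higher. Some of the counts in the other comparisons follow. Between WT males and females, T and NK cell markers were called lower in males for 5 of 10 and higher for 1, stellate markers lower for 4 of 8 and endothelial markers higher for 4 of 9. B and plasma markers, lower for 2 of 6, and neutrophil markers, lower for 2 of 11, stood near the 26.8% of all genes. The summed stellate level was 339 to 395 CPM in WT males and 439 to 519 CPM in WT females. In the test of the Y665F effect between the sexes, the log2 difference from WT was called higher in males than in females for 5 of 8 stellate and 3 of 10 T and NK cell markers, and lower for 1 of the latter, beside 16.1% of all genes higher and 11.5% lower. In Y665H against Y665F, T and NK cell markers were called lower for 9 of 10 (and higher for 1) in males and 10 of 10 in females, with medians of -2.56 and -1.82, and B and plasma markers for 6 of 6 in both sexes. Neutrophil markers were lower for 6 and 7 of 11 and dendritic markers for 7 and 6 of 10, in males and females (with 1 dendritic marker higher in females), beside 21.2% and 26% of all genes. Stellate markers were lower for 5 of 8 in males. In females 3 of 8 were higher and 0 lower, where 30.5% of all genes were called higher. Between Y665H males and females, 5 of 8 stellate markers were called lower in males, beside 16.7% of all genes. In Y665H males 2 of 11 neutrophil markers were called higher, with a summed level of 1.03 to 7.44 CPM, and 1 of 6 B and plasma markers, while in Y665H females 2 of 10 T and NK cell markers were called lower. The part of these cells in the results was not tested.

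**Figure D5:**
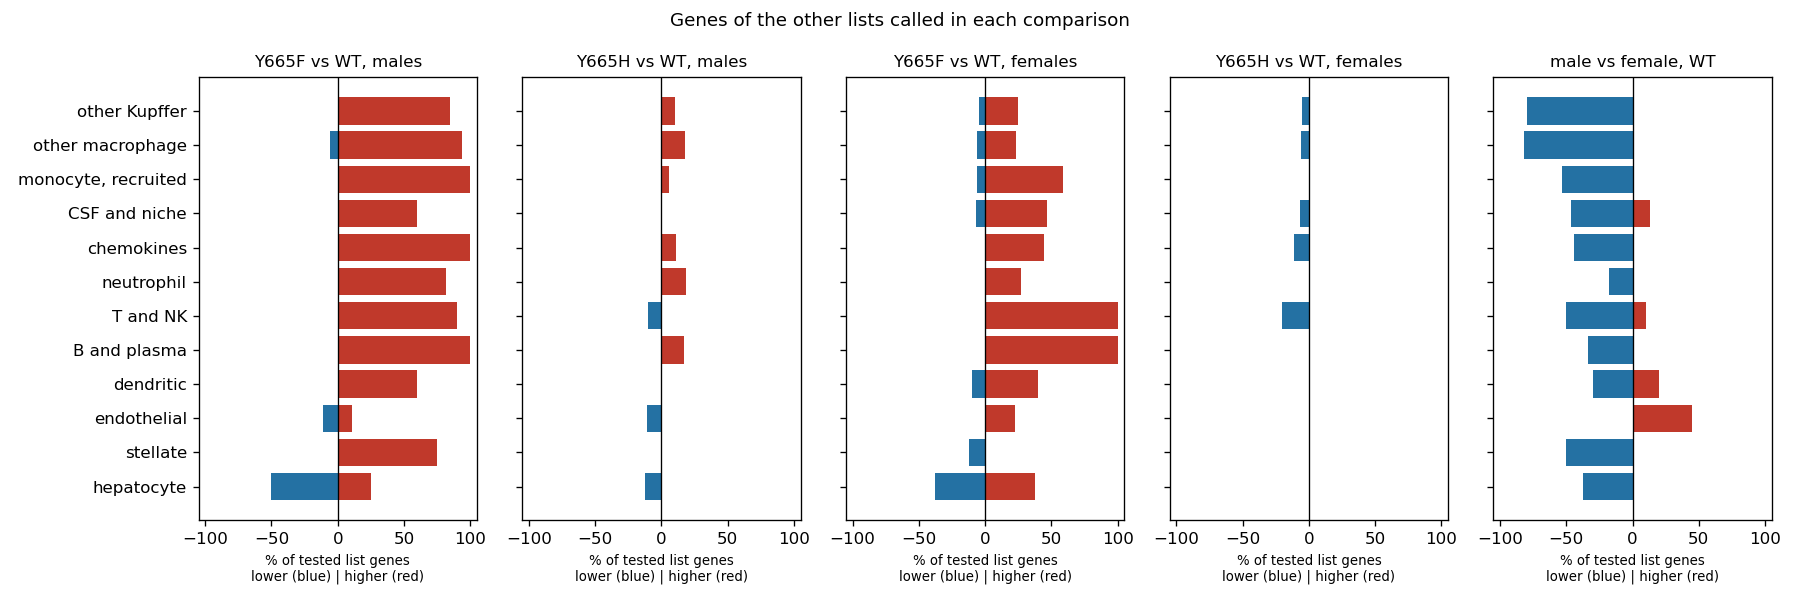
Share of the tested genes of each list called higher (red, to the right) or lower (blue, to the left) in 5 comparisons. In Y665F males 17 of 20 Kupffer, 16 of 17 macrophage and 17 of 17 monocyte genes are called higher, against 5, 4 and 10 in Y665F females.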

How the data were processed

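RNA was measured in 37 mouse liver libraries. The labels do not say that each came from a separate mouse, so p-values measure the spread between libraries. Per the labels' protocols, the libraries were stranded, paired-end and depleted of ribosomal RNA. Kits of different makers are named, and which library used which is not stated. Per the submitters' processing notes the tools were FastQC 0.11.9, Trimmomatic 0.36, STAR, SAMtools 1.9, Picard 2.9.2 and HTSeq 0.9.1, and the build was mm10. The deposited files hold raw counts per gene symbol. Their 5 rows that name no gene, 32.4% to 49.9% of counted items, were left out. Groups and replicate numbers came from the sample titles, and nothing in the labels pairs the libraries. No 2 libraries of a group were alike within sampling noise.

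In R 4.3.3, edgeR 4.0.16 tested 15152 genes (filterByExpr, minimum count 10, minimum total 15; 9269 left out) in a single quasi-likelihood fit with TMM factors and 2-sided tests over all libraries. The Benjamini-Hochberg adjusted p-value was set at 0.05 within each of 11 comparisons, which share libraries. The tests were tried on simulated data. Alternatives used limma 3.58.1, DESeq2 1.42.0, other scaling, filters, covariates and left-out libraries. The 10 genes were always named, and of each list up to 4 called genes with the largest log2 fold change. Prtn3, Ngp, Ltf, Mpo, Alb, Cd4 and Slc4a1 were named after their values were seen. One named gene is not reported here. Genes and lists were chosen with earlier results of these data known.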

Additional observations from a re-analysis of the deposited data

Results flagged for a closer look

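In 60 groups of libraries, each a single gene in 1 of the 6 groups, 4 had a highest library far from the others, and chance gives about 1 such group in 20. All 4 were Y665H male replicate 4. Its level was 9.22 CPM for Timd4 (next highest 5.08), 18.6 CPM for Marco (next highest 4.30), 39.4 CPM for Adgre1 (next highest 20.9) and 63.5 CPM for Lyz2 (next highest 36.8). That library held 61040803 counts in genes, and for Clec4f, Vsig4, Cd5l, Csf1r, Cd68 and Ccr2 it was not set apart by this measure.

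The Y665F effect was larger in males than in females by an interaction test in 9 genes, by 0.79 on the log2 scale for Clec4f, 0.85 for Vsig4, 0.89 for Timd4, 1.89 for Marco, 1.01 for Cd5l, 0.84 for Adgre1, 0.84 for Csf1r, 0.77 for Cd68 and 0.88 for Lyz2. The Y665H effect differed in the same direction by 2.87 for Marco and 1.00 for Cd5l. These tests share the WT libraries, and every gene was read from the same libraries.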

How the results depend on the processing

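For the 10 genes in all comparisons, 2425 of 2560 repeat values kept their direction and their side of the threshold, and none of the 37 that changed sign had been called. The count in Y665F males was 10 in all fits, and 7 of these changed by 1 or more on the log2 scale. In Y665H males the count of 2 became 5 with DESeq2, 6 with only the groups compared, 1 when thinned to equal depth, 1 with the share of reads in no gene as a covariate, 1 with a replicate block, 1 at a change of 1 or more, and 1 to 4 when a library was left out. In Y665F females the count of 1 became 5 with only the groups compared. Y665H against Y665F gave 1 (not 7) in males and 2 (not 8) in females at a change of 1 or more, 5 in females with library totals, and 5 to 9 in males and 5 to 8 in females without a library. The WT sex difference kept 4 of 9 genes at a change of 1 or more. In the comparisons added later, Y665F mice gave 1 gene with library totals and 1 when thinned, and Y665H mice 0 to 2 without a library. The sex difference of the Y665F effect gave 3 of 9 genes with the covariate and 2 at a change of 1 or more. That of the Y665H effect (2 genes) gave 4 with DESeq2, 1 with only the groups compared, 1 with the replicate block, 1 at a change of 1 or more, and 1 to 5 without a library.

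The cause of these changes was not tested. Replicate numbers did not pair the libraries (same-number correlations -0.225 to 0.150). The replicate block left 10, 1, 1 and 0 genes for Y665F males, Y665H males, Y665F females and Y665H females against WT, 6 and 7 for Y665H against Y665F in males and females, and 8 for the Y665F sex difference. No paired analysis was possible between the sexes because the block was nested in sex.

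Library totals moved the median of all genes by -0.15 in Y665F females, 0.13 in Y665H against Y665F females, 0.12 in the Y665F sex difference, 0.21 between Y665F males and females and 0.12 between Y665H males and females. With them the sign changed for Vsig4 (-0.061) and Lyz2 (-0.083) in Y665F females, Lyz2 in Y665H against Y665F females (0.0046), Clec4f (0.16) and Cd5l (0.051) between Y665F males and females, and Timd4 (0.093) and Csf1r (0.054) between Y665H males and females. Csf1r between Y665F males and females was -0.00970 with limma-voom and -0.014 with only the groups compared. When thinned, Timd4 between Y665H males and females was 0.058 and the Y665H sex difference of Ccr2 was 0.063.

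Leaving out a library changed signs near 0. Between Y665H males and females the ranges were -0.19 to 0.23 for Adgre1, -0.035 to 0.28 for Ccr2, -0.21 to 0.022 for Csf1r, -0.54 to 0.93 for Marco and -0.31 to 0.098 for Timd4. Between Y665F males and females they were -0.12 to 0.025 for Clec4f, -0.054 to 0.065 for Csf1r and -0.0078 to 0.12 for Timd4. In Y665H females they were -0.15 to 0.036 for Ccr2, -0.26 to 0.053 for Lyz2 and -0.22 to 0.044 for Vsig4, in Y665F females -0.0038 to 0.14 for Lyz2 and -8.85e-06 to 0.14 for Vsig4, and for Lyz2 in Y665H against Y665F females -0.31 to 0.0025. Depth limits genes of low counts, and the lowest count was 15, for Ccr2 in a Y665H female.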
